A study of Mus musculus with 88 samples.

Results

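The effect of deleting *Trem2* was compared between APP mice that carry human APOE3 and APP mice that carry human APOE4. The 58 cortical RNA-seq libraries of APP mice were taken from the 88 libraries of the series. They fall into 14 APP/E3, 14 APP/E3/Trem2ko, 14 APP/E4 and 16 APP/E4/Trem2ko mice, with 1 library per mouse and as many females as males in each genotype. All 58 mice carried the APPswe and PSEN1dE9 transgenes (APP/PS1dE9), which drive amyloid plaque formation in brain from a prion protein promoter. In all of them both copies of mouse *Apoe* were replaced by human APOE3 or APOE4 at the mouse locus, and the Trem2ko mice were homozygous for the em2ADiuj deletion allele. The mice were on a C57BL/6 background and 6.5 months old, and RNA came from the frontal cortex. APOE3 and APOE4 mice come from separate targeted lines and are littermates within an isoform only, so isoform and line cannot be told apart. The paper describes the Trem2ko genotypes as coming from a further cross with *Trem2* knockout mice, and the part of that cross was not tested. The 30 mice of the series without the transgenes (8 E3, 8 E3/Trem2ko, 6 E4 and 8 E4/Trem2ko) are called plaque-free below. The paper describes them as littermates of the APP mice, and they entered as independent animals without a litter term.

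APOE is the main lipoprotein of the brain, made by astrocytes and by microglia that react to plaques, and APOE4 is the common isoform that most raises the risk of late-onset Alzheimer's disease. TREM2 is a receptor of microglia that binds lipids and lipoproteins, APOE among them, and signals through the adaptor TYROBP. It is needed for microglia to gather around plaques and to switch on the genes of the disease-associated state. The interaction of both genes asks whether the loss of TREM2 acts differently in the presence of each isoform. It was computed per gene as (APP/E4/Trem2ko minus APP/E4) minus (APP/E3/Trem2ko minus APP/E3) on log2(CPM + 0.5), where CPM is the count of a gene scaled to the total reads of its library. A positive value means that the level without *Trem2*, relative to that with *Trem2*, was higher in APOE4 than in APOE3 mice. The pseudocount of 0.5 makes these differences understate the change of genes near 0. A gene is called at a Benjamini-Hochberg adjusted p under 0.05 over the 14066 genes with a mean CPM of at least 1, in limma with sex as covariate.

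Depth was 41.3 to 95.5 M reads (median 50.4). *Trem2* itself followed the labels: it measured 10.3 to 19.5 CPM in APP/E3 and 8.23 to 19.8 in APP/E4 mice, against 1.46 to 3.94 and 1.34 to 4.65 in their Trem2ko counterparts, with no overlap. Its fall was 2.44 log2 units in APOE3 and 2.21 in APOE4 mice (limma, interaction 0.24, adjusted p = 0.604). Some libraries stand apart in RNA of other tissues. *Ttr*, the choroid plexus transport protein, was at or over 100 CPM in 8 libraries (5 APP/E3/Trem2ko, 1 APP/E4 and 2 APP/E4/Trem2ko). The sum of 3 squamous keratins (*Krt13*, *Krt4* and *Krt6a*) reached 1 CPM in 20 libraries, 10 APP/E4 and 10 APP/E4/Trem2ko, and in no APOE3 library. *Alb*, the liver albumin, was at or over 50 CPM in 3 APP/E4 libraries, and *Rn45s*, the ribosomal RNA precursor, had medians of 1276, 1159, 6289 and 4104 CPM in APP/E3, APP/E3/Trem2ko, APP/E4 and APP/E4/Trem2ko mice. The study's methods name a sequencing batch that the labels do not give, and its part in the results was not tested.

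In the interaction 42 of 14066 genes were called (0.299%): 25 were higher (0.178%) and 17 lower (0.121%). At an unadjusted p under 0.05 there were 2068 genes (14.7%). The same contrast gave 57 calls in edgeR (0.405%; 21 higher at 0.149%, 36 lower at 0.256%) and 53 higher and 64 lower in DESeq2 (0.832% together, 0.377% and 0.455%). In limma after TMM scaling there were 18 higher and 31 lower, so that the share of higher calls was 59.5% in the main test and 36.7% after TMM scaling. The underlying effects were unequal in number. *Trem2* deletion changed 41 genes (0.291%; 29 higher at 0.206%, 12 lower at 0.0853%) in APOE3 mice and 1746 genes (12.4%; 1427 higher at 10.1%, 319 lower at 2.27%) in APOE4 mice. At an unadjusted p under 0.05 these were 747 (5.31%) and 3912 (27.8%). In edgeR the APOE3 effect had 0.355% called (0.256% higher, 0.0995% lower) and the APOE4 effect 10.1% (5.6% and 4.46%). In DESeq2 these were 0.526% (0.363% and 0.164%) and 12.2% (6.63% and 5.61%). After TMM scaling the APOE4 effect was 684 higher and 654 lower. Without the 8 libraries high in *Ttr* it was 148 higher and 33 lower, and the interaction was 9 higher and 7 lower. The 15 of the 42 genes still called without them were *Gm20186*, *Ighg2c*, *Pon2*, *Tdp1*, *Dennd4a*, *Rec8*, *D430020J02Rik*, *Fggy*, *4833420G17Rik*, *Tmem267*, *Aldh7a1*, *Ica1*, *Themis2*, *Mecr* and *Srp54b*. Left out singly, the 58 mice gave between 22 interaction calls (without APP/E3 mouse D3641) and 224 (without APP/E4 mouse E3327), with a median of 36. Of the 42 genes 19 stayed called in each of the 58 fits, and the others were lost in up to 41 of them.

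**Figure D1:**
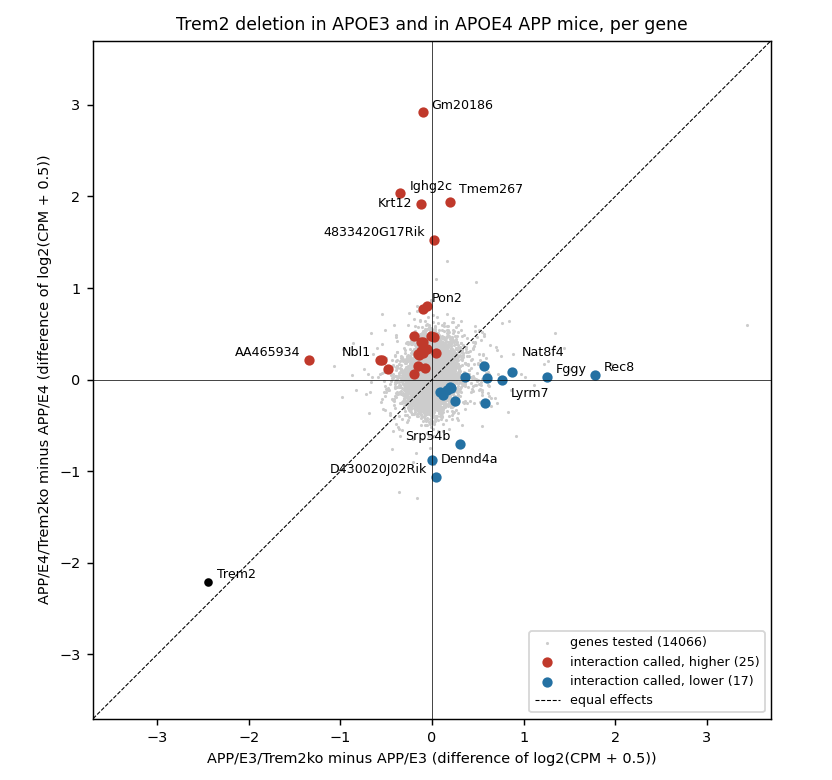
Each point is a gene, with the difference of log2(CPM + 0.5) after *Trem2* deletion in APOE3 mice on the x axis and in APOE4 mice on the y axis. Red points are the 25 genes called higher in the interaction and blue points the 17 called lower. They lie near one of the axes rather than in the corners, while *Trem2*, in black, lies near the line of equal effects at -2.44 and -2.21.

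The 42 genes split by the isoform in which *Trem2* deletion moved them. In 26 genes the deletion effect was called in APOE4 mice and not in APOE3 mice (20 of them higher and 6 lower in the interaction). In 15 it was called in APOE3 mice and not in APOE4 mice (5 higher and 10 lower), and in *Cacul1*, whose product binds cullins, in neither. No gene was called in both. The effects had opposite signs in 31 of the 42, against 45.1% of all genes tested. The isoform difference was called in 40 of the 42 genes in mice with *Trem2* and in 6 without it, where 32.5% and 3.58% of all genes tested were called. The genotype farthest from the other 3 was APP/E4 for 22 genes and APP/E3 for 17. A genotype with intact *Trem2* thus stood apart in most of them. Over all genes tested APP/E4 was the farthest genotype in 52.5% and APP/E3 in 17.3%. The interaction and both deletion effects share their mice, so these counts describe the called genes and add no independent evidence.

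**Figure D2:**
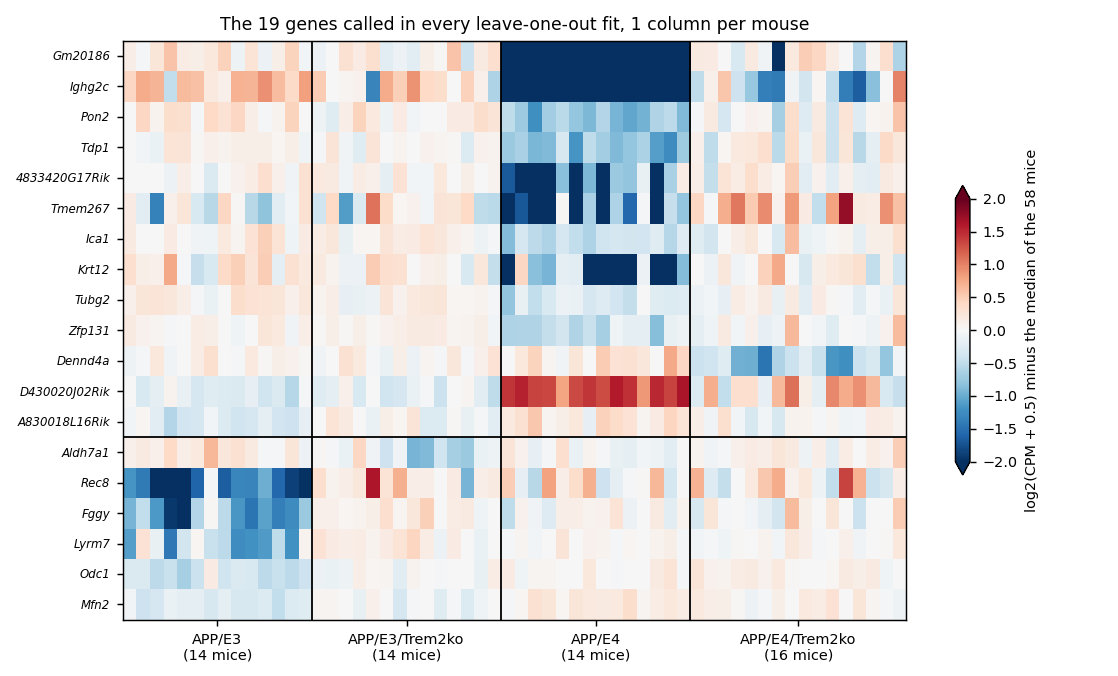
Level of the 19 genes that stayed called with each mouse left out (rows) in the 58 APP mice (columns), as log2(CPM + 0.5) minus the median of all 58. The upper block holds the 13 genes with a *Trem2* effect called in APOE4 mice and the lower block the 6 with one called in APOE3 mice. Most of the colour lies in the APP/E4 columns of the upper block and in the APP/E3 columns of the lower block.

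The most sharply split gene was *Gm20186*, a predicted gene that the annotation used here does not place. Its level was 3.47, 4.22 and 5.89 CPM (lowest, median and highest) in APP/E3 mice and 2.68, 4.02 and 5.89 in APP/E3/Trem2ko mice. In APP/E4 mice 11 of 14 libraries were at 0 and the highest was 0.0726. In APP/E4/Trem2ko mice it was 0.0218 in mouse X0152 and between 2.29 and 5.5 in the rest. The gene was thus close to absent in every APP/E4 mouse, and mouse X0152 was the 1 APP/E4/Trem2ko mouse with a level like theirs. The interaction was 3.02 ± 0.24 log2 units (SE, limma, adjusted p = 1.08e-13).

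*Ighg2c*, the constant region of an immunoglobulin heavy chain that C57BL/6 mice carry, is encoded on chromosome 12 (113287389 to 113288932, GRCm38). It measured 1.65, 4.15 and 5.16 CPM in APP/E3 and 0.71, 3.03 and 5.11 CPM in APP/E3/Trem2ko mice. In APP/E4 mice it was 0, 0.0214 and 0.153 CPM, with 5 libraries at 0, and in APP/E4/Trem2ko mice 0.462, 1.7 and 5.53. All 14 APP/E4 mice lay below every mouse of the other 3 genotypes, which held for the farthest genotype of 1 gene in 14066 (0.00711%). The interaction was 2.38 ± 0.27 (limma, adjusted p = 1.42e-08). *Ighm*, the heavy chain of immunoglobulin M, had medians of 26.2, 23.5, 13.6 and 18.9 CPM in the same order and an interaction of 0.59 (adjusted p = 0.192).

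*Pon2*, a lactonase of intracellular membranes with antioxidant action, and *Tdp1*, which repairs DNA ends blocked by topoisomerase, had the same shape at higher levels. *Pon2* ran 40.9, 48.8 and 57.5 CPM in APP/E3, 35.3, 46.6 and 57.2 in APP/E3/Trem2ko, 17.7, 24.9 and 29.5 in APP/E4 and 26.5, 43.6 and 62.9 in APP/E4/Trem2ko mice. All APP/E4 mice were below all APOE3 mice, and the lowest APP/E4/Trem2ko mouse was again X0152. *Tdp1* had medians of 11.2, 10.8, 6.02 and 11.7 CPM, and 12 of 14 APP/E4 mice lay below every mouse of the other 3 genotypes. Their interactions were 0.87 ± 0.12 for *Pon2* (limma, adjusted p = 1.24e-05) and 0.85 ± 0.13 for *Tdp1* (adjusted p = 2.33e-05).

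A set of 3 genes within 0.329 Mb of chromosome 13 (119462015 to 119791477) was low in part of the APP/E4 mice. They are *4833420G17Rik* and *Tmem267*, which encode little-studied proteins, and *Zfp131*, a zinc-finger transcriptional regulator. *4833420G17Rik* was 2.14, 8.36 and 22.8 CPM in APP/E4 mice, against 14.5, 22 and 28.8 in APP/E4/Trem2ko mice and medians of 20.5 and 21.8 in APP/E3 and APP/E3/Trem2ko mice. The spread within APP/E4 was wide: 12 of the 14 mice lay below all mice of the other genotypes, while E3830 at 22.8 and E3333 at 18.4 lay among them. *Tmem267* had medians of 6.68, 7.69, 2.05 and 11.1 CPM and *Zfp131* of 32.3, 32.8, 22.2 and 29.7. For all 3 genes 7 APP/E4 mice were below the other genotypes, and 12 for any of them. The interactions were 1.5 ± 0.27 (limma, adjusted p = 0.00162), 1.73 ± 0.33 (adjusted p = 0.00346) and 0.45 ± 0.10 (adjusted p = 0.0306), and 6 genes of 6 tested in the interval had an unadjusted p under 0.05.

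*Krt12*, a keratin known from cornea, was not among the epithelial keratins that marked the 20 libraries above. It was 14.1, 22.9 and 33.6 CPM in APP/E3, 13.9, 20.8 and 28.1 in APP/E3/Trem2ko, 0.654, 6.44 and 26.3 in APP/E4 and 13.7, 20.5 and 33.3 in APP/E4/Trem2ko mice. Of the 14 APP/E4 mice 10 lay below every other mouse, and the remaining ones overlapped. *Tubg2*, a gamma-tubulin gene on the same stretch of chromosome 11, had medians of 58.3, 52.3, 41.4 and 48.8 CPM. Both rose with *Trem2* deletion in APOE4 mice, with interactions of 2.04 ± 0.42 for *Krt12* (limma, adjusted p = 0.00884) and 0.40 ± 0.08 for *Tubg2* (adjusted p = 0.0121). In edgeR and DESeq2 *Krt12* was not called.

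The other genes that rose with *Trem2* deletion in APOE4 mice moved by less than 1 log2 unit. *Ica1*, a protein of dense-core vesicles, and *Umad1* lie within 3.514 Mb of *Pon2* on chromosome 6. *Ica1* had medians of 36.8, 37.1, 25.9 and 34.4 CPM (interaction 0.48 ± 0.10, limma, adjusted p = 0.00552) and *Umad1* of 48.2, 49.6, 35.9 and 44.7 (0.24 ± 0.06, adjusted p = 0.0358). *Lamtor4*, a subunit of the lysosomal Ragulator complex that anchors mTORC1, had medians of 20.9, 19.4, 13.2 and 18.7 CPM (0.52 ± 0.13, adjusted p = 0.0418). *Ddit3*, the stress transcription factor CHOP, was the 1 called member of the unfolded protein response list, with medians of 23.9, 21.6, 17.3 and 19.9 CPM (0.41 ± 0.10, adjusted p = 0.0458). In *Ubl5*, a splicing-associated ubiquitin-like protein, and *Sh3bgrl3*, a small thioredoxin-fold protein, APP/E4 was likewise lowest, with medians of 45.3 and 43.1 CPM against 63 and 57.1 in APP/E4/Trem2ko mice. *Lin37* of the DREAM complex, *Vstm5* and *Kctd17* had the same direction, with interactions of 0.44, 0.44 and 0.30. After TMM scaling *Ddit3*, *Lamtor4*, *Ubl5*, *Sh3bgrl3* and *Kctd17* were no longer called, at adjusted p of 0.061, 0.0511, 0.0553, 0.0574 and 0.103, and *Umad1* was lost as well. With length and GC offsets none of these genes was called, and neither were *Lin37*, *Vstm5* and *Tubg2*.

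In APOE4 mice 6 called genes fell with *Trem2* deletion. *D430020J02Rik*, a long noncoding RNA of chromosome 12 (116401947 to 116405161), was 5.62, 8.79 and 10.5 CPM in APP/E4 mice and 2.01, 3.99 and 7.13 in APP/E4/Trem2ko mice, with medians of 2.47 and 2.6 in the APOE3 genotypes. It was high in every APP/E4 mouse, above all other mice in 12 of 14, and APP/E4/Trem2ko mice spread from the APOE3 level upwards. The interaction was -1.10 ± 0.18 (limma, adjusted p = 0.000124). *Ighg2c*, 3.118 Mb away, had an interaction of the opposite sign. The 12 APP/E4 mice outside all other genotypes for this RNA were also outside for *Ighg2c*. That sharing is fixed by the counts, since all 14 were outside for *Ighg2c*. *Dennd4a*, an exchange factor that activates the trafficking GTPase Rab10, had a different shape. It was 68.5, 74.2 and 92.1 CPM in APP/E3, 66.5, 74.5 and 91.1 in APP/E3/Trem2ko, 69.7, 86.2 and 124 in APP/E4 and 26.2, 54 and 70.6 in APP/E4/Trem2ko mice. Here the APP/E4/Trem2ko mice stood apart, with 15 of 16 below every other mouse. The interaction of *Dennd4a* was -0.87 ± 0.14 (adjusted p = 7.91e-05).

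*Srp54b*, a signal recognition particle subunit with near-identical copies nearby whose reads may be shared, had medians of 1.52, 1.97, 2.67 and 1.77 CPM. APP/E4 mouse E3475 alone reached 24 CPM. *A830018L16Rik* and *Tspyl5* moved by 0.49 and 0.30 log2 units downwards in the interaction, with medians in APP/E4 of 124 and 80.9 CPM and in APP/E4/Trem2ko of 106 and 71.1.

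**Figure D3:**
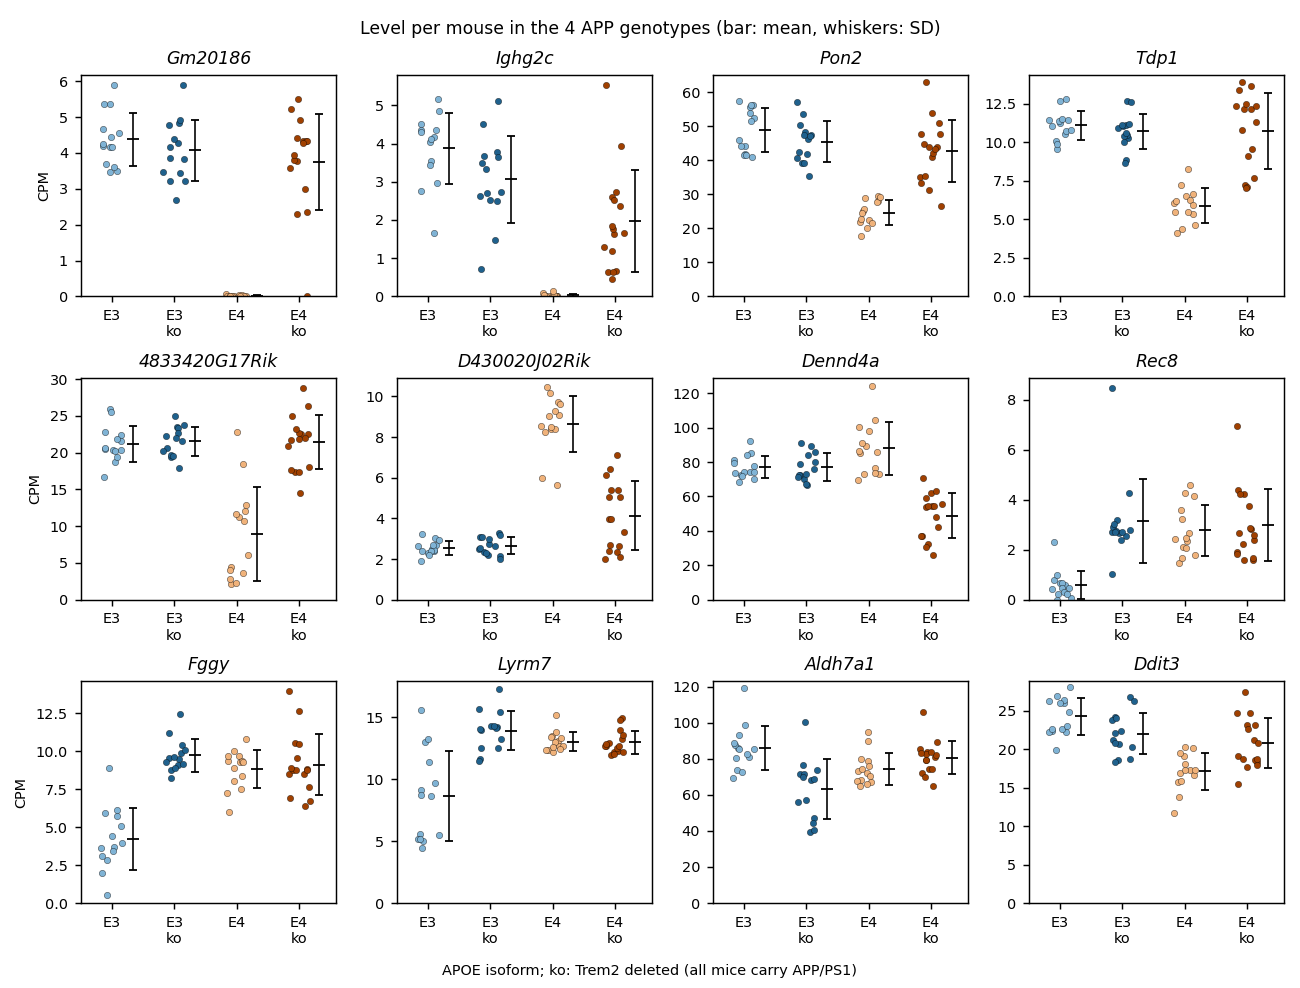
Level in CPM of 12 called genes in the 4 APP genotypes, 1 point per mouse, with the mean and SD beside the points. *Gm20186*, *Ighg2c*, *Pon2*, *Tdp1* and *4833420G17Rik* are low in APP/E4, *D430020J02Rik* is high there, *Dennd4a* is low in APP/E4/Trem2ko, and *Rec8*, *Fggy* and *Lyrm7* are low in APP/E3.

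Of the 15 genes moved in APOE3 mice 10 were low while *Trem2* was intact and rose when it was deleted. *Rec8*, a cohesin subunit of meiosis encoded on chromosome 14, was 0, 0.473 and 2.33 CPM in APP/E3 mice and 1.02, 2.74 and 8.46 in APP/E3/Trem2ko mice. In APP/E4 and APP/E4/Trem2ko mice it was 1.49, 2.45 and 4.61 and 1.58, 2.64 and 6.97 CPM. Of the 14 APP/E3 mice 13 lay below all mice of the other genotypes. *Fggy*, a carbohydrate kinase encoded on chromosome 4, was 0.56, 3.81 and 8.92 CPM in APP/E3 mice, against 8.26, 9.5 and 12.5 in APP/E3/Trem2ko, 6.03, 9.28 and 10.8 in APP/E4 and 6.42, 8.78 and 13.9 in APP/E4/Trem2ko mice. The interaction was -1.73 ± 0.27 for *Rec8* (limma, adjusted p = 9e-05) and -1.22 ± 0.22 for *Fggy* (adjusted p = 0.000965). The deletion effects in APOE3 mice were 1.78 and 1.26 log2 units, and those in APOE4 mice 0.06 and 0.03.

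*Odc1*, ornithine decarboxylase of polyamine synthesis, and *Ywhaq*, the 14-3-3 theta adaptor, lie within 3.873 Mb on chromosome 12 and behaved alike. *Odc1* was 21.6, 25.8 and 38.7 CPM in APP/E3 mice, with medians of 34.4, 35 and 36.7 in APP/E3/Trem2ko, APP/E4 and APP/E4/Trem2ko mice. *Ywhaq* was 49.6, 75.5 and 111 CPM in APP/E3 mice, with medians of 110, 97.3 and 104 in the others. For both genes the same 13 of 14 APP/E3 mice lay below every mouse of the other genotypes. The interactions were -0.33 ± 0.07 for *Odc1* (limma, adjusted p = 0.0142) and -0.42 ± 0.10 for *Ywhaq* (adjusted p = 0.0413).

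The sets of APP/E3 mice outside the others were compared between genes. The 12 APP/E3 mice below all other genotypes for *Fggy* were also below them for *Rec8*, *Odc1* and *Ywhaq*, and 10 of these were below them for *Lyrm7*, an assembly factor of respiratory complex III on chromosome 11. With 11 to 13 of 14 mice outside for each of these genes, most of this sharing is fixed by the counts. For *Mecr* only 2 mice, D3562 and D3742, were outside, for *Mfn2* and *Themis2* 2 each and for *Oprd1* 1. APP/E3 mouse D3930 was not outside for *Fggy*, *Rec8*, *Odc1* and *Ywhaq*. It had 8.92 CPM of *Fggy*, 2.33 of *Rec8*, 38.7 of *Odc1*, 111 of *Ywhaq* and 21.2 of *Nat8f4*, in each case the highest value among the APP/E3 mice and within the range of the other genotypes or above it. For *Lyrm7*, with 9.15 CPM, it lay among the low mice, and for *AA465934* and *Nbl1*, with 10.01 and 88.6 CPM, it was among the mice above all other genotypes. *Lyrm7* ran from 4.41 to 15.6 CPM in APP/E3 mice (median 8.69), against medians of 14.1, 12.8 and 12.7 in the others (interaction -0.77 ± 0.15, limma, adjusted p = 0.00552).

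*Nat8f4*, a member of a family of acetyltransferases with close copies beside it on chromosome 6, was 3.63, 5.83 and 21.2 CPM in APP/E3 mice and had medians of 12.4, 11.5 and 11.8 in the other 3 genotypes (interaction -0.80 ± 0.19, limma, adjusted p = 0.0423). The pseudogene *Ptges3-ps*, 0.065 Mb away at most, had medians of 49, 55.8, 60.3 and 58 CPM. *Mfn2*, which fuses mitochondria, had medians of 215, 257, 297 and 276 CPM (-0.29 ± 0.06, adjusted p = 0.0283). *Mecr*, of mitochondrial fatty acid synthesis, rose from 6.87 to 10.7 CPM at the median in APOE3 mice and stood at 9.12 and 8.88 in APP/E4 and APP/E4/Trem2ko mice. *Oprd1*, the delta opioid receptor, had medians of 19, 27.6, 31.2 and 27.5 CPM (-0.84 ± 0.20, adjusted p = 0.0358). *Mecr* lost its call only without mouse D3563 (adjusted p = 0.0512), and *Oprd1*, *Nat8f4* and *Ptges3-ps* lost theirs in 18, 35 and 11 of the 58 fits.

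The remaining 5 genes fell with *Trem2* deletion in APOE3 mice. *Aldh7a1*, an aldehyde dehydrogenase of lysine breakdown encoded on chromosome 18, was 69.6, 85.4 and 119 CPM in APP/E3 and 39.2, 68.5 and 100 in APP/E3/Trem2ko mice, with medians of 72.7 and 81.5 in APP/E4 and APP/E4/Trem2ko mice. It was the 1 called gene in which APP/E3/Trem2ko stood farthest from the rest (interaction 0.59 ± 0.11, limma, adjusted p = 0.00387). The noncoding RNA *AA465934* was 0.877, 5.26 and 11.7 CPM in APP/E3 mice and never above 2.99 in the other 3 APP genotypes. The APP/E3 mice formed a low and a high set, with 8 of 14 above every mouse of those genotypes. In plaque-free E3 mice it reached 10.4 CPM. *Themis2*, a signalling adaptor of macrophages and B cells, had medians of 2.12, 1.01, 1.22 and 1.42 CPM. *Nbl1*, a secreted antagonist of bone morphogenetic proteins, had 73, 44, 35.4 and 42.4 CPM, and *Tnip1*, an inhibitor of NF-kappaB signalling, 35.5, 31.5, 28.5 and 29.7. *AA465934* lost its call without any 1 of D3569, D3641, E3475 and E3203 and *Themis2* without any 1 of 5 mice, D3720, D3563, D3627, D3884 and E3475 (adjusted p up to 0.0558 and 0.057).

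Not every gene that *Trem2* deletion moved in APOE3 mice took part in the interaction. Of the 41 genes called in APOE3 mice 5 were also called in APOE4 mice, all 5 in the same direction: *Trem2*, *Ide*, *Btaf1*, *Ublcp1* and *Fgfbp3*. *Ide*, the insulin-degrading enzyme that also cleaves amyloid-beta, rose by 0.84 log2 units in APOE3 and 0.64 in APOE4 mice (interaction -0.21, limma, adjusted p = 0.575). These genes were chosen after their values were seen.

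Called genes lay close to each other in part, without a test of how often this would be seen. A total of 22 of the 41 called genes with a position lay within 5 Mb of another called gene, in 8 groups. The longest group spans 7.25 Mb of chromosome 4 (131843444 to 139093126) and holds 6 called genes, among them *Mecr*, *Oprd1*, *Themis2*, *Sh3bgrl3* and *Nbl1*. Of the 120 genes tested in that span 42 had an unadjusted interaction p under 0.05, where 14.7% of all genes did, and 72 had a positive interaction. These named genes did not share a shape: *Mecr* and *Oprd1* were lower and *Themis2*, *Sh3bgrl3* and *Nbl1* higher in the interaction, and the deletion effect was called in APOE3 mice for *Mecr*, *Oprd1*, *Themis2* and *Nbl1* but in APOE4 mice for *Sh3bgrl3*. On chromosome 6 the stretch from *Pon2* to *Ica1* (5264620 to 8778540) had 7 of 18 genes with an unadjusted p under 0.05. No called gene was among the 670 tested on chromosome 17, where *Trem2* is encoded, and 1, *Lin37*, was among the 1059 on chromosome 7, where *Apoe* is encoded (0.0944%), beside 0.299% over all genes tested.

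No measured gene of the microglial lists was called in the interaction. The homeostatic microglia list, of genes such as *Csf1r*, *Tmem119* and *P2ry6*, had 19 measured members. None was called, none had an unadjusted p under 0.05 (14.7% of all genes tested did), and edgeR and DESeq2 called none. The median effect of *Trem2* deletion was -0.17 log2 units in APOE3 and -0.15 in APOE4 mice, beside medians over all genes of 0.01 and 0.04. Among the 40 myeloid genes 13 fell in APOE4 mice and none was called in APOE3 mice, where 2.27% and 0.0853% of all genes tested fell. Without the libraries high in *Ttr* 4 of the 40 fell in APOE4 mice, where 33 of 14060 genes tested fell. Without those with keratin reads 3 of the 40 fell, where 304 of 14058 did. In the main test the list medians were -0.22 in APOE4 and -0.19 in APOE3 mice. The median interaction of that list was -0.03, beside 0.03 over all genes tested, with 0 of 40 called in limma, edgeR or DESeq2 and 2 at an unadjusted p under 0.05. Of 33 listed genes of disease-associated microglia 24 were measured, with 3 at that p. The 12 measured complement genes had 1, and no gene of either list was called. Fewer microglia and less RNA per microglial cell cannot be told apart in bulk tissue.

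For single microglial genes the interval of the interaction shows what these data allow. *Csf1r*, the receptor on which microglia depend to survive, had medians of 108, 93.7, 123 and 98.6 CPM in APP/E3, APP/E3/Trem2ko, APP/E4 and APP/E4/Trem2ko mice, and an interaction of -0.11 with a 95% interval of -0.32 to 0.09. *Mpeg1*, a pore-forming protein of phagocytes, had medians of 37.4, 29.9, 51.1 and 36 CPM and an interaction of -0.22 (-0.53 to 0.09). Both fell in APOE4 mice, by 0.29 log2 units for *Csf1r* (limma, adjusted p = 0.00756) and 0.55 for *Mpeg1* (0.0013). In APOE3 mice they differed by -0.17 and -0.33 (adjusted p = 0.71 and 0.374). *Slc15a3*, a peptide transporter of endolysosomes, fell in APOE4 mice by 0.76 (adjusted p = 2.57e-05) and had an interaction of -0.32 (-0.66 to 0.02).

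The adaptor of TREM2 and the C1q genes leaned the other way. *Tyrobp* had medians of 9.25, 7.66, 6.25 and 6.32 CPM and an interaction of 0.54 (95% interval 0.05 to 1.03, limma, adjusted p = 0.281). *C1qa*, the start of the classical complement pathway with *C1qb* and *C1qc*, had medians of 63.9, 48.5, 49.9 and 45.9 CPM. *C1qa* fell in APOE3 mice by 0.37 (adjusted p = 0.0386) and differed by 0.02 in APOE4 mice (adjusted p = 0.889), with an interaction of 0.40 (0.15 to 0.65, adjusted p = 0.119). *C1qb* and *C1qc* had interactions of 0.22 and 0.25 (adjusted p = 0.451 and 0.354). The protease *Ctss* and the oxidase subunit *Cyba* had 0.41 and 0.30 (adjusted p = 0.276 and 0.285). None of these passed the test. They belong to 18 genes that the study singled out in these same mice, so their direction is not independent evidence. Of the 18 genes 16 were measured here, and none of the 16 was called. *Clec7a* and *Itgax*, which the paper names as its most strongly downregulated genes, are not among the 16. *Apoe*, for which the table holds what was assigned to the mouse gene in mice whose coding sequence is human, had medians of 16.7, 18, 16.8 and 15.3 CPM and an interaction of -0.44 (-0.93 to 0.04, adjusted p = 0.393), with 1 APP/E4 mouse at 72.4 CPM.

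Genes of energy metabolism and protein synthesis were called in the APOE4 effect and not in the interaction. Of 40 genes of respiratory complexes II to V, which include the ATP synthase, 27 rose with *Trem2* deletion in APOE4 mice, none fell, and none was called in APOE3 mice. Their summed level had a median of 6502 CPM in APP/E3, 6507 in APP/E3/Trem2ko, 5507 in APP/E4 and 6306 in APP/E4/Trem2ko mice, with ranges that overlap (4471 to 6530 in APP/E4 and 4962 to 7348 in APP/E4/Trem2ko). APP/E4 mice were thus the low genotype. The median interaction was 0.30, with all 40 genes above 0 and 26 at an unadjusted p under 0.05, and 0 called by limma or edgeR and 1 by DESeq2. Complex I, the entry point of the chain, had 20 of 37 genes higher in APOE4 mice and a median interaction of 0.22. The mitochondrial ribosome had 41 of 75 and 0.17, and mitochondrial import 13 of 27 and 0.21. Beside them 10.1% of all genes tested were called higher in the APOE4 effect.

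Single members came close to the threshold. The ATP synthase subunit *Atp5j2* had medians of 78.3, 69.8, 57.1 and 68.3 CPM and an interaction of 0.49 (limma, adjusted p = 0.0583). *Cox8a*, of cytochrome c oxidase, had medians of 297, 265, 155 and 200 CPM and 0.50 (adjusted p = 0.0751), and *Ndufa3*, of complex I, 39.5, 37.9, 26.8 and 40.6 CPM and 0.68 (0.08). The ribosomal protein gene *Rpl11* had 0.86 (0.0698), the proteasome subunit *Sem1* 0.45 (0.0713) and the import chaperone *Timm8b* 0.53 (0.081). *Rpl29* alone among the 76 cytosolic ribosome genes was called in APOE3 mice, where it rose by 1.96 (adjusted p = 0.0336), with an interaction of -1.79 (0.168).

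The length of the transcripts moved with these groups. Over all genes the interaction had a Spearman correlation of -0.443 with transcript length, across 13878 genes that share the same libraries, and the deletion effect had -0.488 in APOE4 and 0.017 in APOE3 mice. With genes split by length into 5 bins of like size, the median interaction was 0.15 in the bin of shortest transcripts (median 1442 bases) and -0.07 in that of the longest (6953 bases). Correcting each library for length and GC content removes such a trend by construction. Both bins then had a median of 0.01, which is not separate evidence on length. The group medians then fell to 0.14 for complexes II to V, 0.06 for complex I, 0.09 for the mitochondrial ribosome and 0.09 for the cytosolic ribosome. The genes higher in the APOE4 effect fell to 8 of 40, 3 of 37, 8 of 75 and 2 of 76, from 13 of 76 for the last. Beside these counts with the offsets, 4.05% of all genes were called in the APOE4 effect and 2.38% were called higher. After TMM scaling the counts of higher genes were 20, 13, 26 and 5. Without the 8 libraries high in *Ttr* they were 7, 1, 3 and 1, beside 148 of 14060 over all genes tested there. *Rn45s* differed between isoforms as given above, and the part of RNA quality in these results was not tested. The interaction calls with length and GC offsets were 11 higher (0.0793%) and 16 lower (0.115%), 0.195% together, and 23 of the 42 genes remained called.

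**Figure D4:**
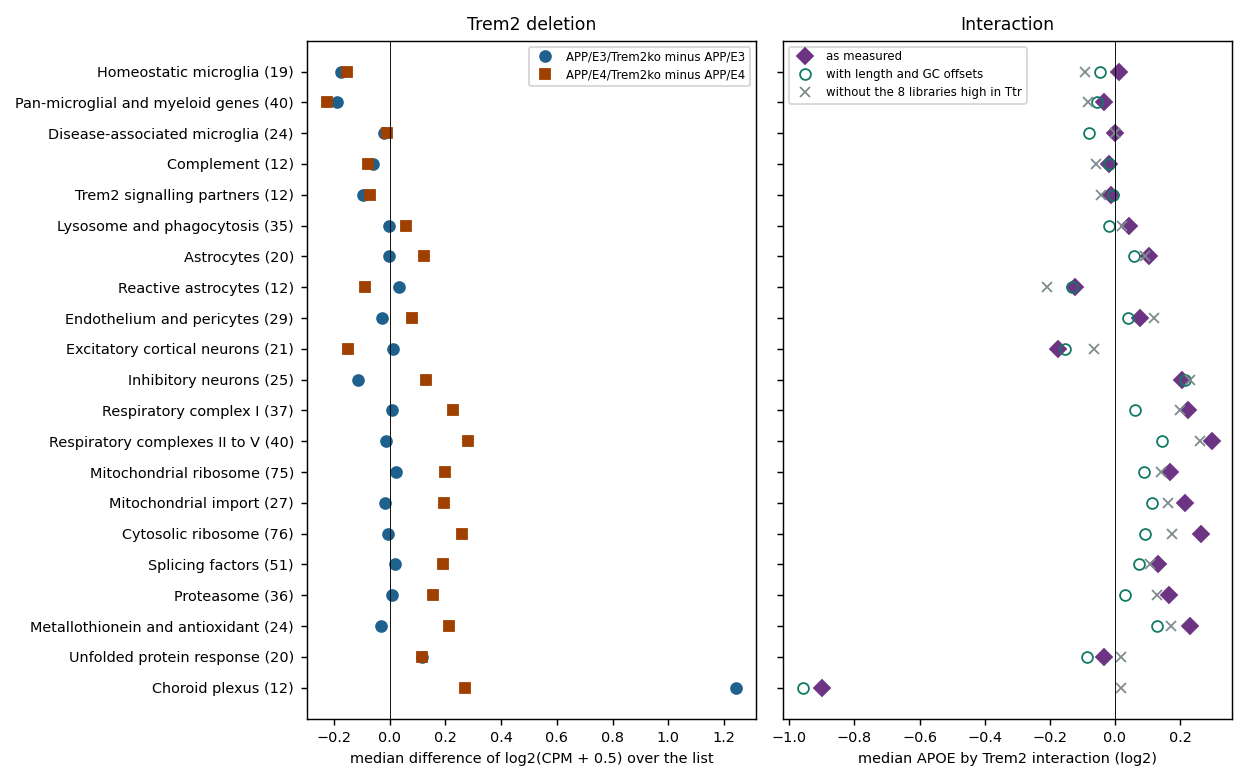
Left, the median difference of log2(CPM + 0.5) after *Trem2* deletion over the measured members of 21 gene lists (number in parentheses) in APOE3 mice (circles) and APOE4 mice (squares). Right, the median interaction as measured (diamonds), with length and GC offsets (open circles) and without the 8 libraries high in *Ttr* (crosses). Microglial lists lie near 0 on the right, respiratory complexes II to V move from 0.30 to 0.14 with the offsets, and the choroid plexus moves from -0.90 to 0.02 without those libraries.

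Over 46 lists with 1057 measured genes, 2 genes were called in the interaction, *Ddit3* and *Ighg2c*. The splicing list (51 genes) had 18 higher in the APOE4 effect and a median interaction of 0.13, the proteasome (36) had 15 and 0.16, and the antioxidant list (24) 11 and 0.23. Within the last, *Gpx4*, which protects membranes from lipid peroxides, and the metallothionein *Mt2* had interactions of 0.60 each (limma, adjusted p = 0.101 and 0.104), and mitochondrial *Sod2* had -0.26 (0.12). With length and GC offsets these 3 lists had 2, 3 and 3 genes higher and medians of 0.07, 0.03 and 0.13.

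Cell-type markers gave values on either side of 0. Inhibitory neurons had a median interaction of 0.21 over 25 genes, with the neuropeptides *Sst* at 0.56 (limma, adjusted p = 0.119) and *Npy* at 0.72 (0.166). *Sst* had medians of 177, 164, 84.7 and 115 CPM and rose with deletion in APOE4 mice by 0.46 (0.0112). Excitatory cortical neurons had -0.18 over 21 genes, with the layer 4 marker *Rorb* at -0.71 (0.115). Astrocytes had 0.11 over 20 genes, with *S100b* at 0.56 (0.114), and reactive astrocytes -0.12 over 12, with *Serpina3n* at -0.87 (0.171). *Serpina3n* fell in APOE4 mice by 1.23 (0.000413), from a median of 34.3 to 13.7 CPM. Endothelium and pericytes had 0.08 over 29, where *Ly6c1* rose by 0.53 in APOE4 mice (0.00654) with an interaction of 0.60 (0.111). The red blood cell list had a median of 1.02 over 6 genes (1.97 in edgeR and 1.98 in DESeq2), none of them called and 4 at an unadjusted p under 0.05.

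Lists of neighbouring tissue depended in part on which libraries were in the fit. Choroid plexus genes had a median interaction of -0.90 over 12 genes (-2.05 in edgeR and -2.10 in DESeq2), and 0.02 without the 8 libraries high in *Ttr*. Their summed level reached 4482 CPM in APP/E3/Trem2ko and 2215 in APP/E4/Trem2ko mice, beside medians of 249.5 and 234 in these genotypes. Striatal genes had 0.32 over 23 genes, and -0.01 with a covariate of striatal markers. The stratified epithelium list had -0.39, with the desmosomal cadherin *Dsc3* at -1.53 (limma, adjusted p = 0.103). Without the 20 libraries with keratin reads, which leaves 4 APP/E4 and 6 APP/E4/Trem2ko mice, the epithelium list had -0.63. In that fit the interaction had 354 genes higher and 51 lower, and 23 of the 42 remained called.

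The plaque-free mice gave other animals for the same contrast. The paper describes them as littermates of the APP mice, so the sets share their breeding lines. Agreement between them cannot tell genotype and breeding line apart. Of the 42 genes 40 had the same sign there, against 55.3% of all genes measured in both. At an unadjusted p under 0.05, 21 of the 42 had that sign. Over all genes 6.77% reached that level, with either sign. None of the 42 had the opposite sign at that level. After adjustment 2 of 14086 genes were called (0.0142%), *Gm20186* and *Umad1*, both among the 42. *Gm20186* was at 0 in 5 of 6 E4 mice and at 0.0443 to 6.03 CPM in E4/Trem2ko mice, with a median of 4.98 (interaction 2.64 ± 0.38, limma, adjusted p = 1.35e-05). *Umad1* had an interaction of 0.46 ± 0.09 (0.0287). *Themis2* stood at 1.04 ± 0.24 there and 0.76 ± 0.17 in APP mice, and *Mecr* at -0.74 ± 0.19 (unadjusted p = 4.2e-05 and 0.000253). *Zfp131*, with 0.53 ± 0.13, had 6 of 6 E4 mice below every mouse of the other 3 plaque-free genotypes. By contrast *Tdp1* was 0.22 ± 0.18 and *Ddit3* 0.00 ± 0.14 in plaque-free mice.

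The interaction was not shown to differ between APP and plaque-free mice for any gene. The test of that difference called 0 of 14086 genes in limma and in edgeR, with 893 (6.34%) and 975 at an unadjusted p under 0.05. The smallest p belonged to *Notch4*, an endothelial Notch receptor, with an interaction of -0.98 in plaque-free and 0.15 in APP mice (unadjusted p = 0.000299, adjusted p = 0.748), followed by *Lcorl* and *Ddx18*. Across all genes the interaction in APP and in plaque-free mice had a Spearman correlation of 0.157, a description over 14049 genes that are not independent replicates.

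**Figure D5:**
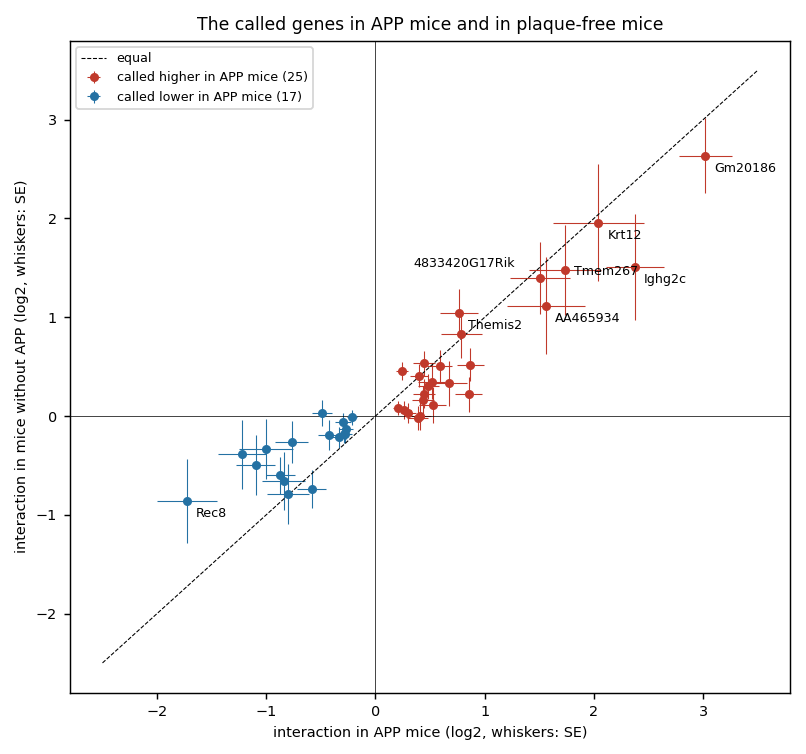
Interaction of the 42 called genes in APP mice (x axis) and in plaque-free mice (y axis), in log2 units with SE whiskers. Points on the broken line would be equal in both. *Gm20186* lies at 3.02 and 2.64, 40 of the 42 points lie in the quadrants of equal sign, and most lie nearer to 0 in plaque-free mice.

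Females and males gave the same direction for all 42 genes, against 64.2% of all genes tested. Since the 42 were called in these same mice, this is a description. The test of a sex difference called 0 genes in limma and in edgeR, with 192 (1.36%) and 214 at an unadjusted p under 0.05. *Gask1a*, with -0.42 in females and 0.60 in males, had the smallest p (unadjusted p = 0.000618, adjusted p = 1), followed by *Zfp963* and *Kif4*. Within females alone 4 genes were called in the interaction and within males alone 10. Without the 20 libraries with keratin reads 95 genes were called for a sex difference, on cells of 2 to 7 mice.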

How the data were processed

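Reads were aligned to mm10 and counted per gene with Subread and featureCounts by the authors, per their methods, and the deposited table holds CPM per gene and mouse (14497 entries, 46 of them repeats that were removed). The gene annotation and any strand setting are not given in the sources used here. In every mouse all values were whole multiples of 1 read within 0.01 read, so reads were recovered for edgeR 4.0.16 and DESeq2 1.42.0. A stricter rule on low values found that step in 23 of the 88 mice. The main test was limma 3.58.1 (R 4.3.3, trend and robust) on log2(CPM + 0.5) over the 58 APP mice with genotype and sex, for genes with a mean CPM of at least 1. The test was checked on simulated data. Plaque-free mice entered a fit of all 88. Positions are from RefSeq GRCm38, transcript lengths and GC from GENCODE on that build (14250 of 14451 genes). Each library was 1 mouse, so p-values measure the spread between mice.

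The members and the 46 gene lists were chosen with earlier results of these data known. Genes named are the 15 with the smallest p in each direction among called genes of at least 0.3 log2 units, up to 4 of each list by p, *Trem2*, *Apoe*, the genes the study names, and the 3 with the smallest p for sex and for plaque-free differences. Other called genes named were added after their values were seen, and some called genes are not reported here.

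Alternatives were the pseudocount, the filter on low values, TMM scaling, the other tools, 2 surrogate variables, length and GC offsets, a striatal covariate, no sex term, all 88 mice, 1 sex alone, leaving out libraries high in *Ttr*, keratins (*Krt13*, *Krt4* and *Krt6a*) or *Alb*, and leaving out each mouse.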

Additional observations from a re-analysis of the deposited data

Results flagged for a closer look

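The interaction test itself marks 42 genes whose *Trem2* effect differed between APOE3 and APOE4 mice, as described above. Of 48 plaque-free groups examined for a single distant mouse (12 genes in 4 genotypes), 5 held one, where chance gives about 1 in 20. *Gm20186* was 0.0682 CPM in E4 mouse E3471, where 1 read is 0.0227 CPM, and 0 in the other 5. With all the others at 0, any read would have been marked. In E4/Trem2ko mouse E3266 it was 0.0443 CPM, while the others had 4.25 to 6.03, beside 0.0218 in APP/E4/Trem2ko mouse X0152. *Rec8* was 3.86 CPM in E4/Trem2ko mouse E3823, above 1.46 to 2.47 in the rest. *Fggy* was 5.74 CPM in E3/Trem2ko mouse D3833, below 8.16 to 10.2, and *D430020J02Rik* was 4.37 CPM in E4 mouse E3855, below 7.81 to 9.68.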

How the results depend on the processing

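No paired analysis was possible because the labels carry no replicate numbers. In the interaction (25 higher, 17 lower) the counts became 53 and 64 with DESeq2, 102 and 57 with 2 surrogate variables, 45 and 33 with a striatal covariate, 9 and 7 without libraries high in *Ttr*, 354 and 51 without those with keratin reads, 3 and 1 in females and 7 and 3 in males. The lower genes became 31 with TMM scaling and 36 in edgeR, and the higher genes 11 with length and GC offsets. Leaving out 1 mouse gave 11 to 180 higher and 8 to 44 lower. The APOE3 effect (29 and 12) became 51 and 23 with DESeq2, 54 higher with surrogate variables, 15 and 6 without high *Ttr*, 2 and 1 in females and 10 and 4 in males, and 19 to 39 and 6 to 16 with 1 mouse left out. The APOE4 effect (1427 and 319) became 684 and 654 with TMM, 788 and 627 in edgeR, 932 and 789 with DESeq2, 688 lower with surrogate variables, 330 higher with offsets, 148 and 33 without high *Ttr*, 741 and 159 without high *Alb*, 11 and 18 in females and 23 and 6 in males, and 801 to 1835 and 169 to 483 with 1 mouse left out. The sex difference became 95 without keratin libraries. List members called in the interaction (2) became 1 at a mean CPM of 5, with TMM, with offsets, without high *Ttr*, without high *Alb*, in females and in males, 5 with all 88 mice, 4 in edgeR and with the striatal covariate, 12 with DESeq2, 17 with surrogate variables and 31 without keratin libraries. The cause of these changes was not tested. The fits of 1 sex alone or without some libraries also hold fewer mice. The balance of calls turned towards lower genes in the interaction with TMM, edgeR, DESeq2 and the offsets, and in the APOE4 effect in females. List medians changed sign for choroid plexus without high *Ttr* (-0.90 to 0.02), striatal genes with the striatal covariate (0.32 to -0.01) and liver genes without high *Alb* (-0.42 to 0.08), among others. All 42 genes kept their call with surrogate variables, the striatal covariate and a pseudocount of 0.1, and 15 did without high *Ttr*. At 41.3 to 95.5 M reads, 1 read is a small part of 1 CPM, so the spread between mice sets the limit.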
